A study of Mus musculus with 6 samples.

Results

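NF-kB is a family of transcription factors that switches on inflammatory and survival genes, and 10 genes of its circuit were followed in HC11 cells given BMP7: the subunit genes *Nfkb1*, *Nfkb2* and *Relb*, the feedback inhibitors *Nfkbia* and *Tnfaip3*, and the inflammatory genes *Lcn2*, *Il1a*, *Il1rn*, *Il6* and *Lif*. They were taken by gene symbol from 55809 genes in the deposited counts by a rule that names them and sets no threshold, although the list was drawn up with earlier results of these data known. All 10 were found and all 10 passed the filter on low counts, as did 15733 genes in all. HC11 is a cell line from the mouse mammary gland, which the study uses as a luminal line. Their poly(A) RNA was read in 6 libraries, 3 from medium with BMP7 and 3 from medium without it (Ctrl). With this comparison the study sought BMP7 targets in luminal cells, for which it took HC11. The methods describe HC11 cells that were starved and then stimulated for a shorter or a longer time, and do not say which time was sequenced. BMP7 libraries are named here by the numbers of their data columns (1, 3 and 4), and nothing in the labels says that libraries of a group came from separate cultures, so p-values measure only the spread between these libraries.

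In resting cells NF-kB dimers are held in the cytoplasm by inhibitors of the IkB family. A signal such as IL-1, TNF or a Toll-like receptor ligand activates the IkB kinase complex, the inhibitor is degraded and the dimers enter the nucleus. Among the first genes they switch on are *Nfkbia* and *Tnfaip3*, whose products shut the pathway off again, and a slower arm of the pathway works through the products of *Nfkb2* and *Relb*. In the mammary gland NF-kB activity is known to change with pregnancy and involution.

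Between 14607938 and 23748970 fragments per library were counted, and levels are given as CPM (counts scaled by library size after TMM normalization), where 1 count was worth 0.0444 to 0.0697 CPM. *Id1*, a direct target of BMP signaling, had a mean of 7.90 ± 0.301 CPM over the Ctrl libraries and of 154 ± 10.7 CPM over the BMP7 libraries (SD, n = 3 in either group). On a scale per length (TPM, counts per summed exon length scaled to the same sum in each library), the basal keratin *Krt14* lay between 5142 and 7510 TPM and the luminal keratin *Krt8* between 79.0 and 95.9 over the 6 libraries, and *Krt19* at 0.461 TPM or less. Of these keratins the basal one was by far the highest, although the study treats the line as luminal. The BMP7 libraries were not alike. Summed levels of 10 neutrophil markers lay between 14.1 and 15.5 CPM in Ctrl and at 15.7 CPM in BMP7 replicate 1, but at 3.20 and 3.80 CPM in the remaining pair, BMP7 replicates 3 and 4. In the same order, 21 macrophage markers summed to between 61.4 and 65.7, to 64.6, and to 31.9 and 29.9 CPM, and 12 adipocyte markers to between 23.2 and 34.3, to 36.2, and to 96.0 and 84.3 CPM. Of the 10 neutrophil markers 5 were tested, with a median log2 fold change of -1.36, and 1 of them, *Mmp8*, was lower. *Ngp* held the largest share of their sum, at 6.31, 5.70 and 6.06 CPM in Ctrl and 7.04, 1.73 and 1.93 CPM in BMP7 replicates 1, 3 and 4, followed by *Csf3r* and *Mmp8*, while *Ly6g*, *Mpo* and *Elane* had at most 0.147 CPM in any library. Of the macrophage markers tested, 3 of 15 were lower and 0 higher, and of the adipocyte markers 8 of 9 were higher and 0 lower. Fibroblast markers moved too, with 4 of 7 higher and 1 lower (median log2 fold change 0.65), and of 9 mammary epithelial markers 1 was higher (*Krt14*) and 3 lower (*Epcam*, *Cdh1* and *Krt18*; median -0.26). These counts of markers stand beside 5.38% lower and 5.99% higher of all genes tested, at the thresholds given below. The part of these markers in the results on the 10 genes was not tested. The paper names only HC11 cells, a cell line, for these libraries, and the source of the marker RNA was not tested. In bulk RNA, fewer cells of a type and less RNA per cell cannot be told apart.

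The promoters of 5 of the genes are shown because they carry, or lack, a DNA word of the kind that NF-kB binds. Other forms of its binding site were not searched, so lower-case stretches may hold sites too. RefSeq (GRCm38.p6) windows were found for 8 of the 10 genes, without *Nfkb1* and *Relb*, and each window here is the 250 bases before a transcription start, 5′ to 3′ on the gene's own strand. Capitals mark a match on either strand to the word GGG, any 2 bases, then TTTCC. The 3 genes with a window that were lower with BMP7 come first, followed by both feedback inhibitors.
Nfkb2, chr19:46304487-46304736, plus strand: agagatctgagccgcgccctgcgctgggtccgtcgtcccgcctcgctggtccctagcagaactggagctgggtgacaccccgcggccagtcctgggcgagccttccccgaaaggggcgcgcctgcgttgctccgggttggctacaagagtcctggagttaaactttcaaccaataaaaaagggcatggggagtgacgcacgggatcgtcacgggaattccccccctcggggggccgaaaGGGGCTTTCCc
Lcn2, chr2:32387740-32387989, minus strand: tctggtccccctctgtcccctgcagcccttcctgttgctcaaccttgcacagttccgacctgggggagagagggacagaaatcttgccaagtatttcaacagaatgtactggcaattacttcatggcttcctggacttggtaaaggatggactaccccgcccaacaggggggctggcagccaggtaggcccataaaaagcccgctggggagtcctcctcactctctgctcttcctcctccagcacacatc
Lif, chr11:4257318-4257567, plus strand: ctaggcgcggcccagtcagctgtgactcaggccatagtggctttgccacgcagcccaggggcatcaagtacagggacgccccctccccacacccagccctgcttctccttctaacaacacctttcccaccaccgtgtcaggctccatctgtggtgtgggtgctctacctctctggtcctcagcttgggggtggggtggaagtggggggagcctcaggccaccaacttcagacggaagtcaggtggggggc
Nfkbia, chr12:55492648-55492897, minus strand: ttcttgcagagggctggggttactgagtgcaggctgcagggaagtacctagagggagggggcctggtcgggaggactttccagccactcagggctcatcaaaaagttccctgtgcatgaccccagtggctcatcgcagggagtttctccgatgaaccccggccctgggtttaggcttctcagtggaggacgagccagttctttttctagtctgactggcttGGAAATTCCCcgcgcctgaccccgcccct
Tnfaip3, chr10:19015411-19015660, minus strand: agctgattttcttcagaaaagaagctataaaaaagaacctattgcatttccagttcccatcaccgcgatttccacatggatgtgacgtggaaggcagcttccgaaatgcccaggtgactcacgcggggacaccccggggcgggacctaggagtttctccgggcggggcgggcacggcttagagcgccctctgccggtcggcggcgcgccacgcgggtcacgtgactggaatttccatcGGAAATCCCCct
The word stood 11 bases before the start of *Nfkb2*, 29 before that of *Nfkbia* and 12 before that of *Tnfaip3* (first base of the match), on the opposite strand in the latter pair. It was found in 6 of 13 windows, of 5 of the 8 genes (also *Il6* and *Il1rn*), and in 1.41% of the 32851 windows of all genes. The word was chosen with these sequences known, so the count is a description, and *Lcn2* and *Lif* held no match in these windows. GGCGCC, a word bound by the Smad proteins that BMP activates, was in none of the 13 windows and in 9.59% of all. No other word was searched for Smad proteins, and Smad binding was not tested. *Nfkb2* and *Tnfaip3* have further starts, and the windows shown are those of the most upstream ones.

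With BMP7, 4 of the 10 genes were lower and none was higher. A gene was called where its adjusted p was below 0.05 and it changed by more than 1.2-fold. The 4 were *Nfkb2*, *Relb*, *Lcn2* and *Lif*, with levels between 0.684 and 0.769 times those of Ctrl. Of all genes tested, 5.38% were lower and 5.99% higher at these thresholds. In the higher direction DESeq2 called 0 of the 10 as well, and 1, *Nfkbia*, was below 0.05 in edgeR's quasi-likelihood test before adjustment (5 were in the lower direction). The BMP7 libraries lay wholly below the Ctrl libraries for 5 genes and wholly above for 1, against 15.1% and 14.8% of all genes tested (29.8% in either direction). The median log2 fold change of the 10 was -0.38, beside -0.01 over all genes tested.

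**Figure D1:**
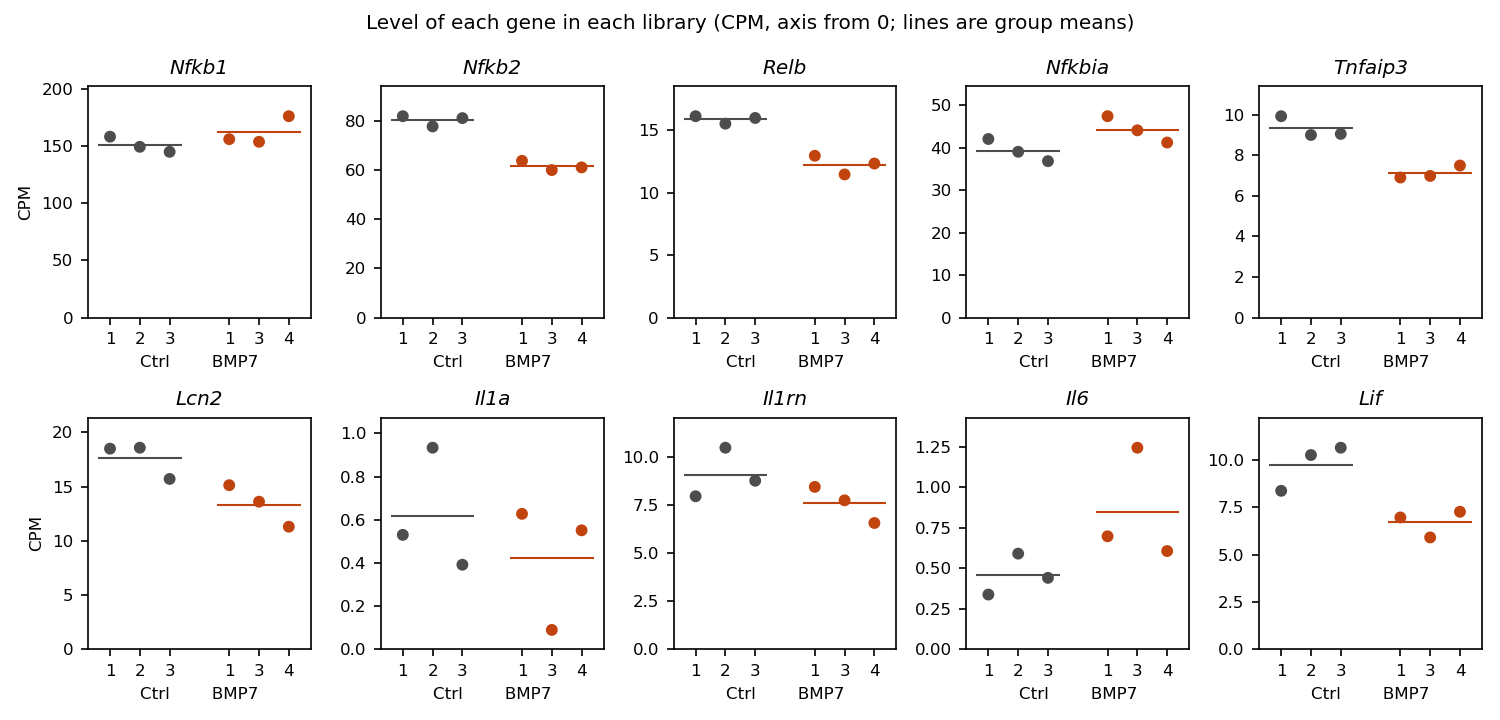
CPM of each of the 10 genes in every library (vertical axis from 0, horizontal axis the library numbers), with lines at the group means. *Nfkb2*, *Relb*, *Tnfaip3*, *Lcn2* and *Lif* have all BMP7 points below all Ctrl points, *Il6* has them above, and the other 4 genes overlap.

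*Nfkb2* encodes p100, which is cut to the p52 subunit. It was measured at 81.9, 77.8 and 81.1 CPM in Ctrl replicates 1, 2 and 3 and at 63.8, 60.0 and 61.1 CPM in BMP7 replicates 1, 3 and 4. The gap between the groups was several times the spread within either. The gene, at positions 46292759 to 46300824 of chromosome 19 (mm39, as for all genes below), fell by 0.38 on the log2 scale (standard error 0.06, 95% interval -0.51 to -0.25, adjusted p = 0.000422, edgeR's quasi-likelihood test). It was lower at the thresholds in each of the 6 fits that left out 1 library, and also with BMP7 replicate 1 alone against Ctrl (log2 fold change -0.33, adjusted p = 0.0261 from edgeR). Exons of 2 other genes, *Psd* and 4833438C02Rik, cover 20.5% of its exon length, and fragments that fell on more than 1 gene were not counted.

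*Relb* encodes the partner of p52. It stood at 16.13, 15.53 and 15.99 CPM in Ctrl and 13.0, 11.5 and 12.3 CPM with BMP7, so that the highest BMP7 library was below the lowest Ctrl library. *Relb*, on chromosome 7 from 19340142 to 19363363, fell by 0.38 on the log2 scale (standard error 0.10, 95% interval -0.60 to -0.16, adjusted p = 0.02, edgeR). Its adjusted p rose to 0.0656, 0.0524 and 0.0623 without Ctrl replicates 1, 2 and 3 and to 0.094 without BMP7 replicate 3, while the log2 fold change stayed between -0.42 and -0.33 over the 11 alternatives that gave calls (5 of processing and 6 leaving out a library), and was -0.29 with BMP7 replicate 1 alone (adjusted p = 0.252).

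*Nfkb1* encodes p105 and its product p50, the subunit of the classical dimer. It was at 158, 149 and 145 CPM in Ctrl and at 156, 154 and 176 CPM with BMP7, and the groups overlapped. The log2 fold change was 0.10 (95% interval -0.04 to 0.24, adjusted p = 0.356, edgeR) for this gene on chromosome 3 from 135290416 to 135397308. Within a library, which needs no scaling between libraries, there were 51.8, 52.1 and 56.0 counts of *Nfkb2* for every 100 of *Nfkb1* in Ctrl and 40.9, 39.0 and 34.7 with BMP7. The groups did not overlap in this ratio (p = 0.1 in a two-sided exact permutation test, and no smaller p is possible with 3 libraries in each group).

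Per summed exon length, *Nfkb2* stood above *Nfkb1* in every Ctrl library, at 46.4 to 50.7 against 31.6 to 37.2 TPM. With BMP7 the 2 genes were at 31.5 to 35.5 and 30.6 to 38.9 TPM, in overlapping ranges. In CPM, *Nfkb1* was above *Nfkb2* in every library. *Nfkbia* had the highest TPM of the 10 in both groups, with means of 66.9 in Ctrl and 69.4 with BMP7. Below *Nfkb1* came *Lcn2* (18.4 and 12.8 TPM), *Relb* (11.2 and 7.98), *Lif* (6.12 and 3.92), *Il1rn* (4.47 and 3.45) and *Tnfaip3* (3.53 and 2.49). *Il1a* (0.858 and 0.550 TPM) and *Il6* (0.511 and 0.873) were lowest and overlapped in both groups, as did *Lif* and *Il1rn* with BMP7, while *Il1rn* and *Tnfaip3* did not overlap in either group. The lengths sum all annotated exons of a gene, 12061 bases for *Nfkb1*, 4584 for *Nfkb2* and 1610 for *Nfkbia*. Levels of genes with many exon variants are therefore understated on this scale. The order of *Nfkb1*, *Nfkb2* and *Nfkbia* in TPM rests on these lengths, and lengths of single transcripts were not tried.

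*Nfkbia*, the gene of IkB alpha, holds NF-kB dimers in the cytoplasm. Its levels were 42.1, 39.1 and 36.9 CPM in Ctrl and 47.5, 44.1 and 41.3 CPM with BMP7, with the lowest BMP7 library inside the Ctrl range. The log2 fold change was 0.17 (95% interval 0.00 to 0.33, adjusted p = 0.179, edgeR) for this gene on chromosome 12 from 55536195 to 55539432, and it kept that side of the threshold in all 11 alternatives.

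*Tnfaip3* encodes A20, an enzyme that edits ubiquitin chains and stops signaling to the IkB kinases. It was measured at 9.920, 8.996 and 9.047 CPM in Ctrl and at 6.90, 6.98 and 7.49 CPM with BMP7, and no BMP7 library reached a Ctrl library. Its log2 fold change of -0.39 was as large as those of *Nfkb2* and *Relb* (95% interval -0.66 to -0.12), with an adjusted p of 0.0534 from edgeR, just outside the threshold. With upper-quartile scaling the adjusted p was 0.0434 and the gene would be counted as lower. It lies on chromosome 10 from 18876658 to 18891405. The values of the feedback genes lay in opposite directions, and neither gene passed the test.

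**Figure D2:**
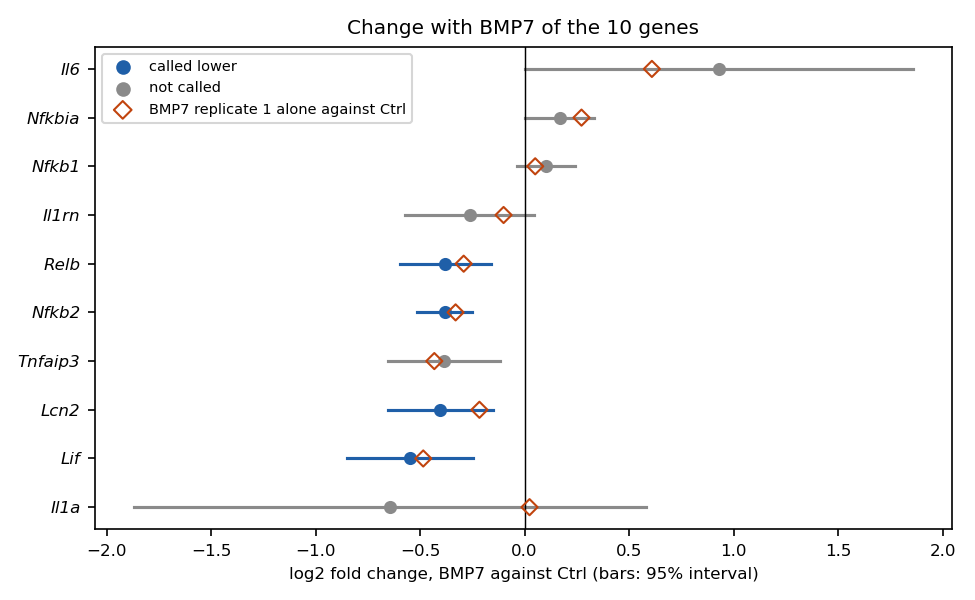
Log2 fold change of BMP7 against Ctrl (horizontal axis) for the 10 genes, with 95% intervals as bars, genes called lower in blue and the others in grey. Open diamonds give BMP7 replicate 1 alone against Ctrl, which lies below 0 for *Nfkb2*, *Relb*, *Tnfaip3*, *Lcn2*, *Lif* and *Il1rn* and at 0.02 for *Il1a*.

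*Lif* encodes a cytokine of the IL-6 family that activates Stat3 in the mammary gland at involution. It had the largest fall of the 4 genes called. Levels were 8.38, 10.3 and 10.7 CPM in Ctrl and 6.97, 5.91 and 7.27 CPM with BMP7. *Lif*, on chromosome 11 from 4207557 to 4222514, fell by 0.55 on the log2 scale (standard error 0.14, 95% interval -0.85 to -0.24, adjusted p = 0.0167, edgeR). The adjusted p was 0.0768, 0.0757 and 0.0913 without Ctrl replicate 2, Ctrl replicate 3 and BMP7 replicate 3, and BMP7 replicate 1 alone gave a log2 fold change of -0.49 (adjusted p = 0.168).

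*Lcn2* encodes lipocalin 2, an iron-scavenging protein that inflamed epithelium and neutrophils secrete. It was at 18.5, 18.6 and 15.7 CPM in Ctrl and at 15.1, 13.6 and 11.3 CPM with BMP7, and BMP7 replicate 1 lay just under the lowest Ctrl library. *Lcn2*, on chromosome 2 from 32274645 to 32278264, fell by 0.40 on the log2 scale (standard error 0.12, 95% interval -0.66 to -0.15, adjusted p = 0.0319, edgeR). Its adjusted p was 0.112 and 0.134 without Ctrl replicates 1 and 2, and 0.0718 and 0.117 without BMP7 replicates 3 and 4. With BMP7 replicate 1 alone the log2 fold change was -0.22 (adjusted p = 0.438), against -0.49 without that library. *Lcn2* stood at 77.3% and 64.2% of the Ctrl mean there, where the neutrophil markers stood at 21.8% and 25.9%, and their part in the fall was not tested.

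*Il1rn* encodes the IL-1 receptor antagonist, which blocks IL-1 at its receptor. It was at 7.95, 10.5 and 8.75 CPM in Ctrl and at 8.43, 7.73 and 6.56 CPM with BMP7, in overlapping ranges. The log2 fold change was -0.26 (95% interval -0.57 to 0.05, adjusted p = 0.276, edgeR) for this gene on chromosome 2 from 24226865 to 24241506. *Il1a*, the gene of the agonist IL-1 alpha, on the same chromosome from 129141530 to 129151892, was counted few times, with 11, 19 and 8 counts in Ctrl and 9, 2 and 10 with BMP7. Its log2 fold change of -0.65 had a 95% interval reaching from -1.87 to 0.58 (adjusted p = 0.53, edgeR), and it shares 11.2% of its exon length with Gm14023.

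*Il6*, the gene of the acute inflammatory cytokine IL-6, had 7, 12 and 9 counts in Ctrl and 10, 28 and 11 with BMP7. As CPM these were 0.337, 0.590 and 0.440 against 0.697, 1.24 and 0.606, so the groups did not overlap, although the lowest BMP7 library exceeded the highest Ctrl library by less than the worth of 1 count. The log2 fold change was 0.93 (95% interval -8.36e-05 to 1.86, adjusted p = 0.191, edgeR) and 0.51 without BMP7 replicate 3, which held most of the counts. *Il6* lies on chromosome 5 from 30218112 to 30224979. The highest value of *Il6* and the lowest of *Il1a* were in the same library, BMP7 replicate 3.

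The other genes of the pathway, in 7 lists of 139 genes, moved in both directions. Of 111 tested, 10 were higher and 19 lower with BMP7, with a median log2 fold change of -0.07. Over all genes tested, 5.99% were higher, 5.38% lower and 11.4% called in either direction. The counts of each list below stand beside these shares.

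Of the 7 other genes of the Rel and IkB family, 2 were higher and 1 was lower. *Nfkbiz* and *Bcl3*, nuclear IkB proteins that bind p50 and p52 dimers on DNA, rose by log2 fold changes of 0.54 and 0.71 (adjusted p = 4.52e-05 and 0.000424, edgeR). *Nfkbiz* was at 57.8, 57.3 and 63.4 CPM in Ctrl and 83.3, 93.0 and 82.7 with BMP7, and *Bcl3* at 19.8, 20.3 and 26.8 against 39.7, 38.7 and 31.2 CPM. *Nfkbie*, a cytoplasmic IkB, fell by 0.74 on the log2 scale (adjusted p = 8.98e-05, edgeR), from 17.6, 17.5 and 17.6 CPM to 11.2, 9.91 and 10.6. These 3 genes stayed past the thresholds in all 11 alternatives and with BMP7 replicate 1 alone. *Rela* and *Rel*, the other subunit genes, had log2 fold changes of 0.20 and 0.02 (adjusted p = 0.173 and 0.912), and *Nfkbib* and *Nfkbid* did not pass either.

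Of 24 genes for the IkB kinases and the adaptors above them, 23 were tested and 0 passed in either direction with edgeR or DESeq2 (2 higher and 3 lower before adjustment), and their median log2 fold change was -0.06. Of 16 other brakes on the pathway, 15 were tested, 1 was higher and 2 were lower. *Zc3h12a*, the gene of the RNase Regnase-1 that degrades cytokine mRNAs, rose from 13.6 ± 2.50 to 22.2 ± 2.06 CPM (log2 fold change 0.70, adjusted p = 0.000943, edgeR). *Cyld*, another brake, was at 95.8 ± 1.47 CPM in Ctrl and 80.5 ± 2.74 with BMP7. Its adjusted p was 0.00962 from edgeR, but its log2 fold change of -0.25 was under the fold change set. *Pdlim2*, whose product targets nuclear p65 for degradation, fell by 0.59 on the log2 scale, and *Sigirr*, an inhibitory receptor of IL-1 and Toll-like receptor signaling, fell by 0.99. *Sigirr* was low throughout, at 2.86 ± 0.0945 CPM in Ctrl and 1.47 ± 0.392 with BMP7, and was past the thresholds in only 2 of the 6 fits that left out 1 library, those without BMP7 replicate 1 and without BMP7 replicate 4.

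**Figure D3:**
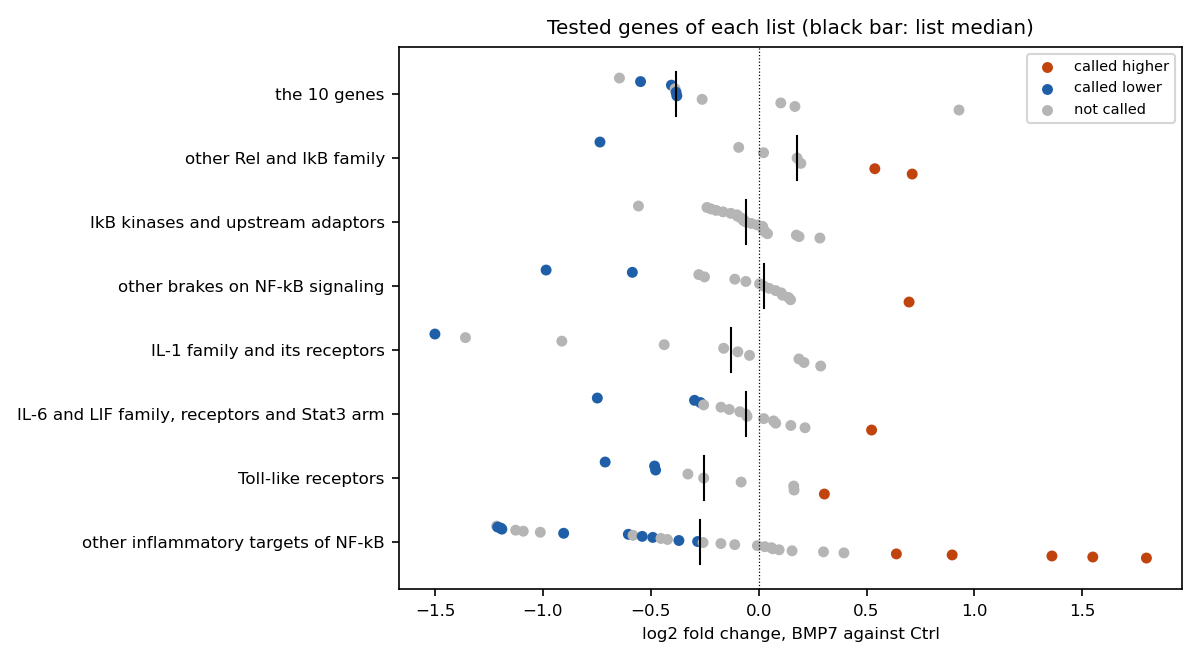
Log2 fold change of BMP7 against Ctrl (horizontal axis) for every tested gene of the 10 and of the 7 pathway lists, colored by call, with a black bar at each list's median. The IkB kinases and adaptors hold no called gene. Called genes among the other inflammatory targets, a list that also holds survival genes, reach from -1.21 (*S100a8*) to 1.80 (*Ptgs2*).

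Among 13 genes of Toll-like receptors and their helpers, 9 were tested, 1 was higher and 3 were lower. *Tlr3*, the receptor for double-stranded RNA, was the clearest, at 112, 128 and 129 CPM in Ctrl and 72.3, 77.5 and 75.6 with BMP7 (log2 fold change -0.71, adjusted p = 1.55e-06, edgeR). *Tlr4*, the endotoxin receptor, fell by 0.48 and its co-receptor *Cd14* by 0.48 on the log2 scale. *Tlr4* stayed past the thresholds in all 11 alternatives, and *Cd14* in only 4 of them. The adaptor *Ticam1* rose (log2 fold change 0.30, adjusted p = 0.0308, edgeR), a call that was lost without any 1 of the Ctrl libraries or without BMP7 replicate 3 (adjusted p of 0.0515 to 0.164) and with BMP7 replicate 1 alone (0.372).

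In the IL-6 and LIF family, with its receptors and the Stat3 arm, 15 of 17 genes were tested, 1 was higher and 3 were lower. *Il6ra*, the IL-6 receptor, was at 13.2, 13.7 and 12.7 CPM in Ctrl and 6.76, 7.87 and 8.81 with BMP7, a log2 fold change of -0.75 (adjusted p = 0.000487, edgeR). *Osmr* and *Tyk2*, a receptor subunit and a kinase of this family, fell by 0.27 and 0.30 on the log2 scale, and *Clcf1*, a ligand, rose by a log2 fold change of 0.52. The call of *Osmr* was lost without Ctrl replicate 3 and without BMP7 replicate 1 (adjusted p = 0.0695 and 0.0508, edgeR), and that of *Tyk2* without Ctrl replicate 1 and without BMP7 replicate 3 (0.0775 and 0.055). *Lifr*, the receptor of LIF, was at 61.4 ± 4.26 CPM in Ctrl and 51.5 ± 3.78 with BMP7, with an adjusted p of 0.0324 from edgeR and a log2 fold change of -0.26, under the fold change set. *Stat3* and its target *Socs3* had log2 fold changes of -0.05 and -0.06 and did not pass.

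The list of other inflammatory targets of NF-kB held 46 genes, some of them survival or stress genes, such as *Bcl2l1* and *Gadd45b*. Of the 46, 32 were tested, 5 were higher and 9 lower. The 5 that rose were *Ptgs2* (cyclooxygenase 2, log2 fold change 1.80), *Gadd45b* (1.55), *Ptx3* (1.36), *Steap4* (0.90) and *Bcl2l1* (Bcl-xL, 0.64). *Ptgs2* was at 59.1, 67.4 and 62.9 CPM in Ctrl and 216, 230 and 212 with BMP7, far outside the spread of either group (adjusted p = 1.39e-11, edgeR). *Ptx3* had under 1 CPM in each Ctrl library, and its adjusted p over the 11 alternatives was between 0.003 and 0.0688, past 0.05 without Ctrl replicate 1 (0.0688) and without BMP7 replicate 4 (0.0514). The 5 largest falls were those of *S100a8* (log2 fold change -1.21), *S100a9* (-1.20), *Saa3* (-1.19), *Tnfrsf1b* (-0.90) and *Lbp* (-0.60). The other 4 lower genes were *Csf1* (-0.54), *C3* (-0.49), *Irf1* (-0.37) and *Slpi* (-0.28). With DESeq2, 5 of the 32 were lower and 5 higher, and the lower genes that dropped out were *S100a8*, *S100a9*, *Saa3* and *Lbp* (adjusted p = 0.303, 0.315, 0.401 and 0.0594). Of the 11 alternatives, *Saa3* lost its call in 7, *S100a9* in 6, *S100a8* and *Lbp* in 5 each, *Slpi* in 3 (without Ctrl replicate 1, Ctrl replicate 2 or BMP7 replicate 3), and *Tnfrsf1b* and *Irf1* in 1 each (without Ctrl replicate 2, adjusted p = 0.0543 and 0.0702).

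The falls were of different kinds when read library by library. Of 16 genes of the IL-1 family and its receptors 10 were tested, and only *Il1b* was lower and 0 higher with edgeR (2 and 1 before adjustment, 0 and 0 with DESeq2). The log2 fold change of *Il1b* was -1.50 (adjusted p = 0.0237, edgeR), and the call was lost without Ctrl replicates 1 or 2 or BMP7 replicates 3 or 4 (0.0656 to 0.117). It was at 10.5, 11.3 and 7.92 CPM in Ctrl, at 8.43 in BMP7 replicate 1 and at 1.64 and 1.32 in BMP7 replicates 3 and 4. *S100a8*, *S100a9* and *Saa3* had the same shape, at 91.0%, 92.1% and 98.2% of their Ctrl mean in BMP7 replicate 1 and between 20.7% and 25.8% in the other two. With BMP7 replicate 1 alone their log2 fold changes were -0.13, -0.12 and -0.02 and that of *Il1b* -0.23, and none of these 4 passed (adjusted p of 0.573 to 0.958, edgeR). *Il1b* and *Saa3* were the genes among the 19 lower ones for which BMP7 replicate 1 lay inside the Ctrl range. The macrophage gene *Lyz2* followed these genes, at 86.1% of its Ctrl mean in BMP7 replicate 1 and 25.8% and 26.5% in BMP7 replicates 3 and 4. *Csf1r*, another macrophage gene, stood at 90.2%, 39.4% and 11.3% in the same order. The sum of the macrophage markers fell less, standing at 100.8%, 49.7% and 46.7% in BMP7 replicates 1, 3 and 4. Of the 15 macrophage markers tested, 12 were not called. The part of the markers in these falls was not tested.

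*Nfkb2* and *Relb* did not have that shape. *Nfkb2* was at 79.5%, 74.8% and 76.1% of its Ctrl mean in BMP7 replicates 1, 3 and 4, and *Relb* at 81.6%, 72.2% and 77.7%. *Lif* and *Tnfaip3* had Ctrl means of 9.77 and 9.32 CPM. In BMP7 replicates 1, 3 and 4, *Lif* was at 6.97, 5.91 and 7.27 CPM and *Tnfaip3* at 6.90, 6.98 and 7.49. *Lcn2* at 86.0%, 77.3% and 64.2% lay between, and *Il1a* was low in BMP7 replicate 3 but not in BMP7 replicate 4.

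**Figure D4:**
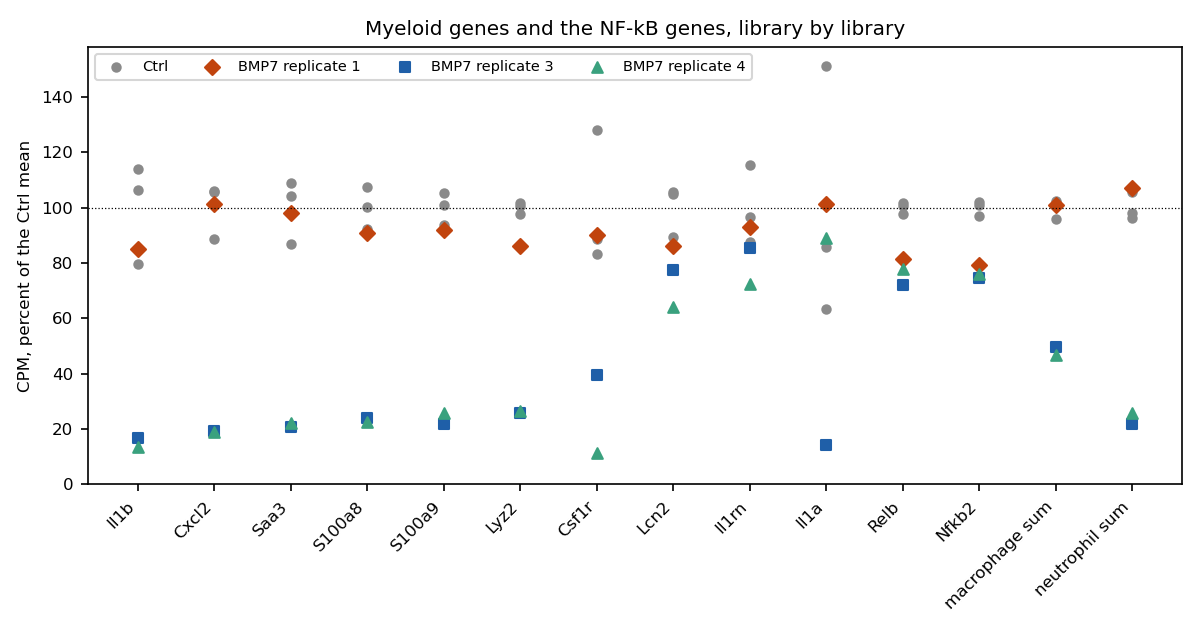
CPM as a percent of the Ctrl mean (vertical axis from 0) for single genes and for the summed macrophage and neutrophil markers, with Ctrl libraries in grey and each BMP7 library in its own color. The genes were chosen by hand, and *Lif* and *Tnfaip3* are not shown. BMP7 replicates 3 and 4 fall to between 13.3% and 26.5% for *Il1b*, *Cxcl2*, *Saa3*, *S100a8*, *S100a9* and *Lyz2* while BMP7 replicate 1 stays between 85.0% and 101.3%, and for *Nfkb2* and *Relb* the 3 BMP7 libraries lie together.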

How the data were processed

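Poly(A) RNA of HC11 cells was sequenced from 3 Ctrl and 3 BMP7 libraries. The authors used subjunc for alignment (Subread 2.0.3 per the labels; the methods name mm10 and GENCODE vM30) and featureCounts for counting by gene name (2.0.1 per the file header, an mm39 annotation). The deposited counts are not normalized, ignore strand, and leave out fragments that mapped to several places or genes, and summed exon lengths were deposited beside them. Coordinates are those of the deposited counts, except promoters (RefSeq, GRCm38.p6). Libraries were grouped by their labels. BMP7 columns carry the numbers 1, 3 and 4 and could be tied to the group only.

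Counts were analysed with edgeR 4.0.16 in R 4.3.3 (filter by expression, TMM, quasi-likelihood test, Benjamini-Hochberg adjustment over 15733 genes; thresholds 0.05 for the adjusted p and 1.2 for the fold change). Intervals are 95% intervals of the fit, and standard errors the log2 fold change over the square root of F. The fit had 4 residual degrees of freedom. The test was tried on simulated counts, whose outcome is not reported here, and no result above rests on it. The 10 genes, the 7 pathway lists and the marker lists were chosen with earlier results of these data known. Genes named from the lists are the up to 5 called genes with the largest rise and fall in each list, *Id1*, and the most abundant marker genes. *Cxcl2*, *Csf1r*, *Cyld*, *Krt14*, *Krt8*, *Krt19*, *Lifr*, *Rela*, *Rel*, *Nfkbib*, *Nfkbid*, *Stat3*, *Socs3*, *Csf1*, *C3*, *Irf1*, *Slpi*, *Epcam*, *Cdh1*, *Krt18*, *Csf3r*, *Mmp8*, *Ly6g*, *Mpo* and *Elane* were named after their values were seen. A search with BLAST 2.17.0 in GENCODE vM21 transcripts (95% identity over at least 100 bases) found matches in other genes for *Nfkb2* (*Psd* and AC114539.1), *Il1a* (Gm14023) and *Relb* (45 genes, at most 125 bases), where fragments may have been lost. *Il1a* and *Il6* had 2 to 28 counts per library.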

Additional observations from a re-analysis of the deposited data

How the results depend on the processing

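The alternatives were DESeq2 1.42.0, RLE and upper-quartile scaling, no filter or at least 10 counts in every library, no fold change threshold, leaving out each library in turn, and a term for BMP7 replicates 3 and 4. The fit of BMP7 replicate 1 alone against Ctrl, with 2 residual degrees of freedom and the lone library assumed to vary like Ctrl, was added after seeing the data. Leaving out 1 library gave 1 to 4 of the 10 genes lower in place of 4 (2, 1 and 2 without Ctrl replicates 1, 2 and 3, and 1 without BMP7 replicate 3), 10 to 23 lower pathway genes in place of 19 (11 and 10 without Ctrl replicates 1 and 2, 12 without BMP7 replicate 3), and 563 (without Ctrl replicate 2) to 902 lower genes in all in place of 846, with fewer libraries in each fit. BMP7 replicate 1 alone gave 1 lower gene of the 10 (*Nfkb2*) and 11 lower pathway genes, and turned the log2 fold change of *Il1a* from -0.65 to 0.024. No alternative called any of the 10 genes higher. Upper-quartile scaling added *Tnfaip3* (5 lower). *Il1a* and *Il6* were not tested with at least 10 counts in every library. No paired analysis was possible because the BMP7 columns carry numbers that do not match those of the labels, so the replicate number was not fitted as a block.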
